A study of Mus musculus with 22 samples.

Results

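The mouse carbonic anhydrase cluster on chromosome 3 holds the genes Car13, Car1, Car3, and Car2, and the peaks of H3K4me3, H3K27ac, and CTCF around them were followed in G1ER cells over 24 h of β-estradiol. The 4 genes were taken by name, out of 21911 protein-coding genes of the annotation. Their span, from the start of Car13 at chr3:14641727 to the end of Car2 at chr3:14900770 (GRCm38, the same build as mm10), was widened by 30 kb on each side to 319 kb. The 22 peak lists of the series held 121 peaks in that stretch, out of 388990 in all: 54 of H3K4me3, 50 of H3K27ac, and 17 of CTCF. Merged across lists, these gave 6 H3K4me3 regions out of 16244, 8 H3K27ac regions out of 24299, and 9 CTCF regions.

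G1ER (labelled G1E-ER4) is a mouse erythroid progenitor line that lacks its own Gata1 and carries in every group a GATA1 protein fused to an estrogen receptor domain, which β-estradiol activates. Undifferentiated cells (0 h) had no estradiol, and the other groups had it for 2, 6, 12, or 24 h. Each histone mark had 2 lists per time point and CTCF had 1 list at 0 h and 1 at 24 h. The samples derive from 1 subclone. The study describes its replicates as independent experiments, the labels do not say more, and p-values here measure the spread between those lists.

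Carbonic anhydrases are zinc enzymes that interconvert carbon dioxide and bicarbonate. Red cells are among the richest sources of the cytosolic forms encoded by Car1 and Car2, which let blood carry carbon dioxide as bicarbonate. Car3 is best known from skeletal muscle, fat, and liver, and Car13 encodes another cytosolic form found in several tissues. H3K4me3 marks promoters of genes in use, H3K27ac marks active promoters and enhancers, and CTCF is a DNA-binding protein that organizes chromatin loops. Car1 is known for having a promoter used in the colon near its coding part and an erythroid promoter far upstream.

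The length of DNA covered by peaks was the quantity measured, because the lists hold positions and a caller's score but no reads. A peak's length in these bulk samples rises with the mark and also with depth and background, and fewer marked cells cannot be told apart from less mark per cell. The lists held 12925 to 14452 peaks for H3K4me3, 17247 to 18333 for H3K27ac, and 33193 and 41473 for CTCF at 0 h and 24 h. An H3K4me3 peak lay within 2 kb of the start site of 7 of 8 erythroid marker genes in at least 1 list. Tal1, named here after its values were seen, had none at the 1 start site used per gene, and other starts were not examined. Of 11 markers of other blood cells, fibroblasts, and liver, 1 had such a peak, the megakaryocyte gene Itga2b, against 46.3% of all start sites. At Itga2b, H3K4me3 peaks covered only 80 to 301 bp within 2 kb of the start in the 10 lists. H3K27ac lay within 2 kb of the start in all 10 lists at 2 of the 11, the megakaryocyte genes Itga2b and Pf4. The gene lists were chosen with earlier results of these data known, so these marker counts are a description only.

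At 24 h each H3K4me3 region that the cluster had at 0 h still held a peak in at least 1 list. The 2 H3K27ac lists held 6 and 5 peaks at 0 h and 4 and 3 at 24 h. The H3K27ac regions in the Car13 body and downstream of Car2 had no peak in either 24 h list. The starts of Car13 and Car1 and the body of Car3 carried H3K4me3 in all 10 lists, and the Car2 start carried it in 9 of 10. H3K27ac was found in all 10 lists at the Car1 start and in the Car3 body, in 8 of 10 at the Car13 start, and in 1 of 10 at the Car2 start. The main annotated start of Car3 had no peak of either mark within 2 kb in any list. The start of a short noncoding Car3 transcript inside the gene had both marks within 2 kb in all 10 lists. None of the 12 regions tested passed the threshold between 0 h and 24 h, and the most visible differences at 24 h were shorter peaks in the Car3 body and the absence of a small H3K27ac peak downstream of Car2.

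**Figure D1:**
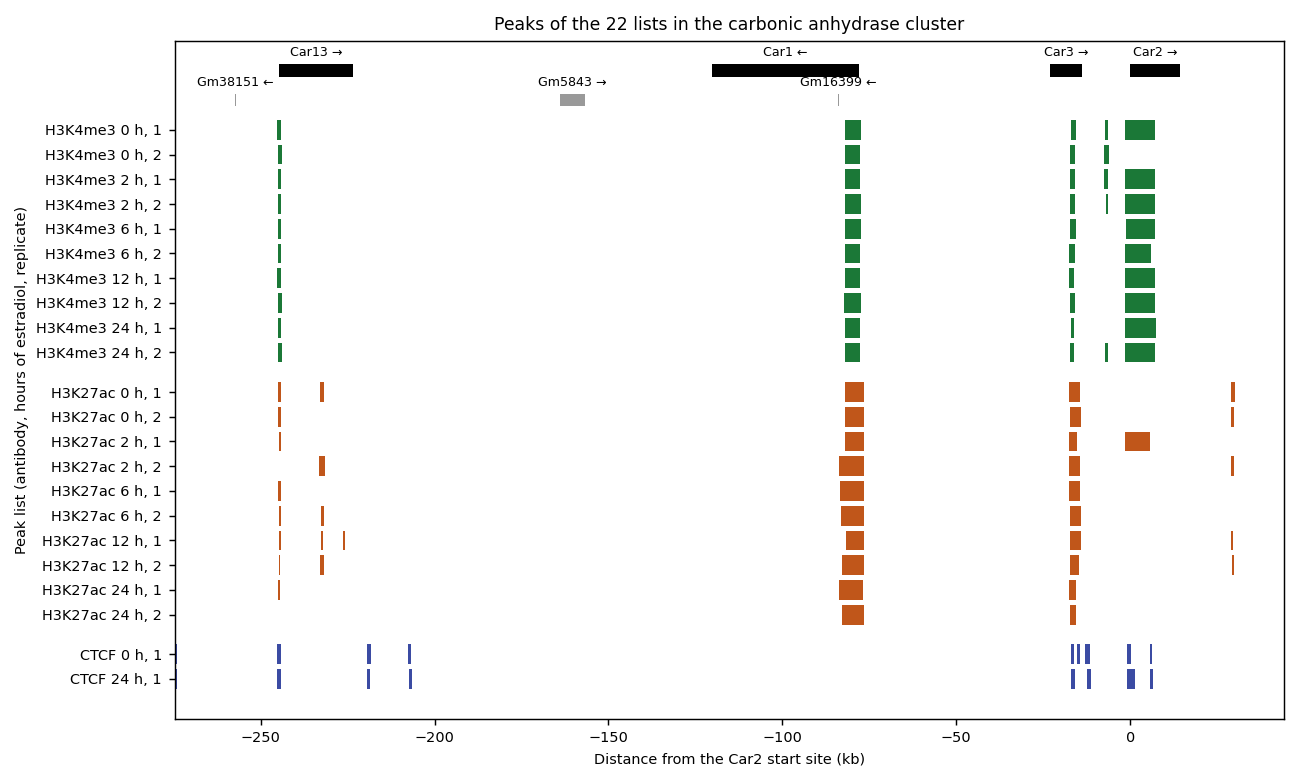
Peaks of the 22 lists (rows: antibody, hours of estradiol, replicate) by distance from the Car2 start site in kb, clipped to the analysed stretch, with the 4 member genes in black and pseudogenes in grey above. Car1 and the Car3 body are marked in every histone list, the long H3K4me3 block at Car2 is missing from replicate 2 at 0 h, and H3K27ac appears at Car2 only in replicate 1 at 2 h. Peaks at the far left edge reach only a little way into the plot.

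The marked regions without the main start site of a coding gene are shown first by their sequence. The letters that the erythroid factor GATA1 and CTCF are known to prefer were searched in them. GATA letters were searched as GATA after an A or T and before an A or G, the CACCC box as CCNCACCC, and the CTCF core as CNAGGNGGC, all on both strands of the reference genome (RefSeq, GRCm38). Of the 4 H3K27ac regions without such a start site, 3 are shown, leaving out a late Car13 intron with a peak in 1 list only. The Car3 body region among them holds the start of a short noncoding Car3 transcript (chr3:14869178). Each CTCF region that held the core away from a main start site is also shown. The match nearest the centre is given with its flanks, 5′ to 3′ on the strand of the match, and capitals mark the match.
Car13 body, H3K27ac, chr3:14653963-14653992, minus strand: agggaccacctcAGATAAgaatccttatgt
Car3 body, H3K27ac, chr3:14870651-14870680, minus strand: taaatggaagtaAGATAGgggtgaagggac
Downstream of Car2, H3K27ac, chr3:14915701-14915730, plus strand: agatttgtcgaaTGATAGtctggcttacat
Between Car13 and Car1, CTCF, chr3:14667271-14667299, minus strand: tgagtctgagCTAGGTGGCctttgccaga
Car3 body, CTCF, chr3:14869977-14870005, plus strand: gatgaggcctCTAGGGGGCgcttggcgca
Car2 intron, CTCF, chr3:14892490-14892518, minus strand: aaacattccaCCAGGTGGCagatacagga

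Such letters are common, and a match is a description only. At least 1 GATA match lay in 93.2% of all H3K27ac regions and a CTCF core match in 21.4% of all CTCF regions. The H3K27ac region in the Car13 body held 11 GATA matches, against a median of 4 in the 2122 H3K27ac regions within 10% of its length. The region at the Car1 start held 23, against a median of 14. The other H3K27ac regions lay closer to the median of their length, with 5 matches against 6 in the Car3 body and 2 against 2 downstream of Car2. CTCF core letters were found in 3 of the 9 CTCF regions of the cluster, those whose sequences are printed, and the Car3 body region held 2 of them. The CACCC box was found 3 times in the H3K27ac region of the Car3 body, where the median was 1, and in none of the regions in the Car13 body and downstream of Car2.

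Car1, transcribed on the minus strand, encodes a cytosolic enzyme abundant in red cells. Its marks lay at the distal start site (chr3:14808365) and not at the start of the shorter transcript (chr3:14778459), which had a peak of neither mark within 2 kb in any of the 20 histone lists. The H3K4me3 region ran over chr3:14804293-14808951, across the 5′ untranslated exon and the intron after it. Its covered length was 4448 and 4281 bp at 0 h, 4473 and 4634 bp after 2 h, 4382 and 4251 bp after 6 h, 4382 and 4659 bp after 12 h, and 4135 and 4449 bp at 24 h. The groups overlapped, and all 10 values lay close together. The mean changed from 4365 bp ± 118 (SD, n = 2) to 4292 bp ± 222 (SD, n = 2), a difference of -0.02 ± 0.06 (SE) in log2(bp + 200) with an adjusted p of 0.946 in limma.

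H3K27ac at Car1 covered a wider region, chr3:14802815-14810044. Its length was 5217 and 5384 bp at 0 h, 5408 and 7201 bp after 2 h, 6916 and 6678 bp after 6 h, 5251 and 6446 bp after 12 h, and 6785 and 6394 bp at 24 h. Both lists at 24 h were longer than both at 0 h, but replicates differed at 2 h and 12 h, most at 2 h. At 12 h, 1 list lay inside the range of the 0 h lists and the other inside that of the 24 h lists. The difference was 0.30 ± 0.15 (SE) in log2(bp + 200), with an adjusted p of 0.328 in limma. The extra length at 24 h lay on the side of the gene body, where the peaks began at chr3:14802815 and chr3:14803434, against chr3:14804566 and chr3:14804499 at 0 h.

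Scores of the peak caller are not comparable between libraries, so each is given as its rank, the share of peaks of the same list with a lower score. A rank also depends on how many weak peaks a list holds, and the H3K4me3 lists held fewer peaks at 24 h (12925 and 13071) than at 0 h (14014 and 14452), so ranks are a description within a list and not a change with time. For H3K4me3 the Car1 peak ranked above 21.3% and 21.7% of the peaks at 24 h, and above 26.7% to 43.0% in the 8 earlier lists. For H3K27ac it ranked above 15.7% and 16.2% at 24 h and above 13.4% to 46.1% earlier. The H3K4me3 ranks at 24 h thus lay below all earlier ones, and the H3K27ac ranks did not. No test was made of ranks.

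Car2 encodes the fast cytosolic carbonic anhydrase of red cells. Its H3K4me3 region (chr3:14884869-14893716) was the longest of the cluster and ran from upstream of the start site (chr3:14886428) through exons and introns of the gene. The covered length was 8571 bp in replicate 1 and 0 bp in replicate 2 at 0 h. It was 8608 and 8483 bp after 2 h, 8332 and 7312 bp after 6 h, 8652 and 8563 bp after 12 h, and 8637 and 8608 bp at 24 h. Of the 10 lists, 9 held a peak of more than 7 kb and 1 held none, so the 0 h pair spanned the whole range.

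The mean at Car2 was 4286 bp ± 6061 (SD, n = 2) at 0 h and 8623 bp ± 20.5 (SD, n = 2) at 24 h. The difference of 2.74 ± 1.41 (SE) in log2(bp + 200) did not pass the test (adjusted p = 0.518 in limma) and came from the list without a peak. Both values at 24 h exceeded the other 0 h value by less than 70 bp. In the window of 2 kb around the start site, the difference without replicate 2 of 0 h was -0.02.

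H3K27ac at Car2 was listed once, as a peak of 7439 bp in replicate 1 at 2 h. The other 9 lists had no peak there, and the region was not tested. Peaks as long as those of Car2 were a particular class in these lists. The H3K4me3 peaks at Car2 were longer than 99.7% or more of the peaks of their list, yet their scores exceeded only 9.73% to 30.8% of them. Over all peaks, those of 6 kb or longer had a median score rank of 33.6% for H3K4me3 and 37.5% for H3K27ac, against 72.8% and 70.4% for peaks of 2 to 4 kb. Regions whose longest peak was 6 kb or more were found in all 10 lists less often than those of 4 to 6 kb, in 88.2% against 98.8% for H3K4me3 and in 60.9% against 87.8% for H3K27ac. The part of peak length in the absence of peaks at Car2 was not tested.

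**Figure D2:**
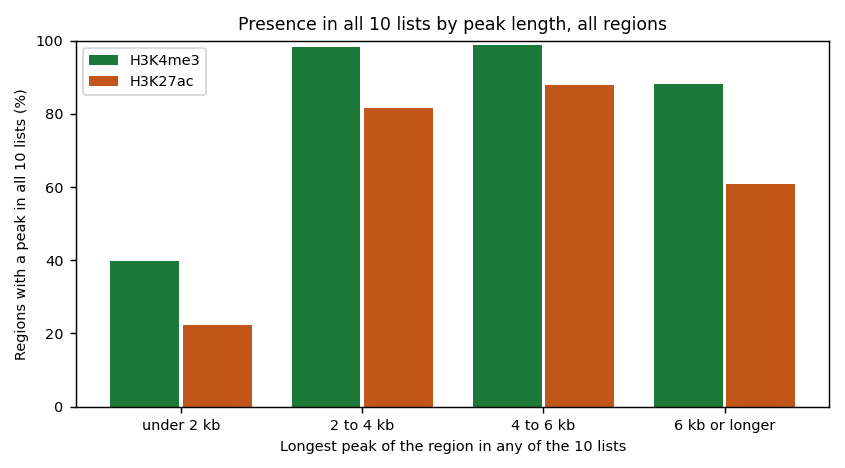
Share of all regions with a peak in all 10 lists of a mark (vertical axis, percent) by the longest peak the region had in any list (horizontal axis), for H3K4me3 and H3K27ac. The share is lowest for regions under 2 kb (39.9% and 22.4%) and falls again at 6 kb or longer, the class of the Car2 region, most for H3K27ac (60.9%).

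Car3 encodes a form of low activity known from muscle. Neither mark had a peak within 2 kb of its main start site (chr3:14863538). Both marks lay inside the gene, more than 5 kb downstream, over exons 5 and 6 and close to the start of a short noncoding transcript of Car3 (chr3:14869178). The H3K4me3 region was chr3:14868937-14870795. Its covered length was 1440 and 1622 bp at 0 h, 1601 and 1551 bp after 2 h, 1769 and 1553 bp after 6 h, 1316 and 1538 bp after 12 h, and 1063 and 1075 bp at 24 h. Both values at 24 h were below all 8 earlier ones.

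The H3K27ac region of the Car3 body (chr3:14868730-14872251) was longer and also reached the last exon. It covered 3286 and 3222 bp at 0 h, 2114 and 3073 bp after 2 h, 3169 and 3179 bp after 6 h, 3162 and 2623 bp after 12 h, and 2030 and 1958 bp at 24 h. Again both values at 24 h were the lowest, and replicate 1 at 2 h came near them. From 0 h to 24 h, H3K4me3 length went from 1531 bp ± 129 to 1069 bp ± 8.49 and H3K27ac length from 3254 bp ± 45.3 to 1994 bp ± 50.9 (SD, n = 2 each).

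Neither difference in the Car3 body passed the test over all regions. It was -0.45 ± 0.11 (SE) in log2(bp + 200) for H3K4me3, with an adjusted p of 0.144, and -0.65 ± 0.16 (SE) for H3K27ac, with an adjusted p of 0.0752 (limma, Benjamini-Hochberg). The H3K27ac value passed when only the 4 lists at 0 h and 24 h were fitted (adjusted p = 0.0147) and when either list at 2 h was left out (0.0116 and 0.0120). Over all alternatives its adjusted p lay between 0.0116 and 0.231.

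Where the H3K27ac peaks of 0 h and 24 h differed in the Car3 body was their downstream end. They ended 558 and 663 bp past the start of exon 7, the last exon with the 3′ untranslated part, at 0 h. At 24 h they ended at -783 and -553 bp on the same scale, before that exon. Replicate 1 at 2 h also ended before the exon, at -452 bp, and the other 5 lists between 2 h and 12 h ended within it. The upstream ends of all 10 lists lay between chr3:14868730 and chr3:14869090. The H3K4me3 ranks in the Car3 body were 29.99% to 37.87% in the lists before 24 h, with 33.6% in replicate 1 at 24 h and the highest rank of all 10 lists in replicate 2 at 24 h. For H3K27ac the ranks were 19.7% and 30.3% at 24 h, against 29.0% to 43.6% earlier.

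**Figure D3:**
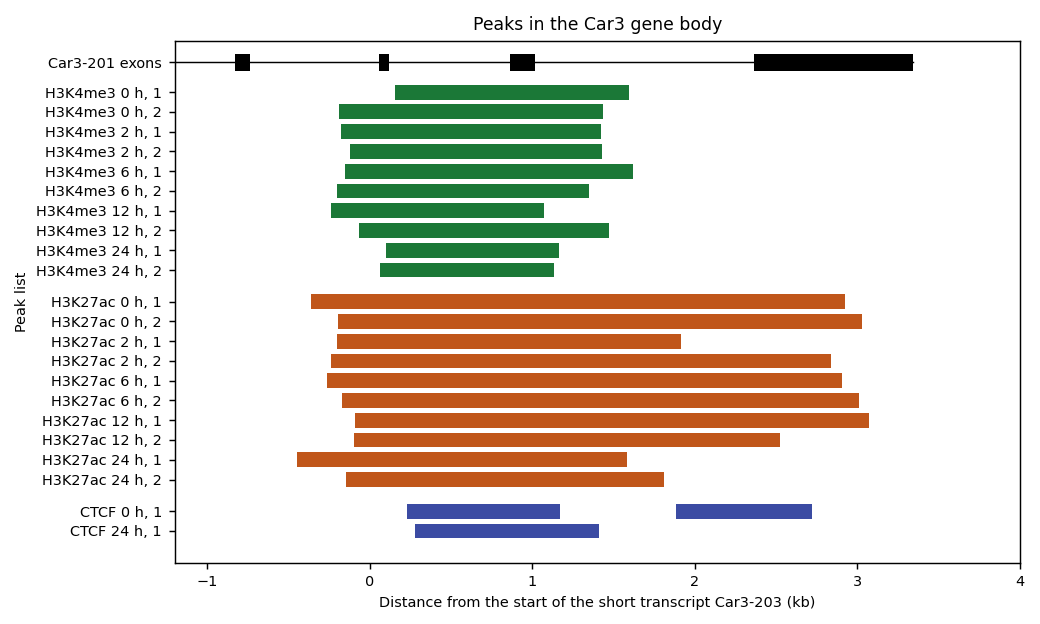
Peaks inside Car3 in each list, by distance in kb from the start of the short transcript of Car3, with exons of the coding transcript in black. The H3K27ac bars at 24 h stop before the last exon, as does that of replicate 1 at 2 h, and the H3K4me3 bars at 24 h are the shortest of their mark. The second CTCF peak, on the right, appears at 0 h only.

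Car13 encodes a cytosolic form and lies at the other end of the cluster. H3K4me3 at its start (chr3:14641238-14642511) covered 834 to 1085 bp in the 10 lists, with 1085 and 1010 bp at 0 h and 834 and 1014 bp at 24 h. The groups overlapped, and the difference was -0.15 ± 0.16 (SE) in log2(bp + 200), with an adjusted p of 0.761 in limma, and went from -0.04 without replicate 1 to -0.27 without replicate 2 of 24 h. H3K27ac at the start covered 1002 and 990 bp at 0 h, 545 and 0 bp after 2 h, 811 and 554 bp after 6 h, 621 and 469 bp after 12 h, and 620 and 0 bp at 24 h. Both 0 h values were the highest of the 10, but a list without a peak at 24 h made the spread wide. The difference was -1.56 ± 0.83 (SE), with an adjusted p of 0.369 in limma. It was -2.58 without replicate 1 and -0.54 without replicate 2 of 24 h (adjusted p = 0.183 and 0.785). Its scores ranked above only 1.42% to 32.1% of the peaks of their lists.

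Smaller regions of both marks lay in and between the genes. In the body of Car13 (chr3:14653150-14654987, over coding sequence and intron), H3K27ac was found in 5 of 10 lists, with 1141 and 0 bp at 0 h and no peak in either list at 24 h. The difference of -1.37 ± 1.42 (SE, adjusted p = 0.629 in limma) rested on replicate 1 of 0 h, without which no list at either time had a peak. A second place in a late Car13 intron (chr3:14660058-14660654) had a peak in replicate 1 at 12 h alone. Between Car3 and Car2 (chr3:14879017-14880246), H3K4me3 was found in both lists at 0 h and both at 2 h, in none at 6 h and 12 h, and in replicate 2 at 24 h, and the difference of -1.37 ± 0.74 (SE) did not pass (adjusted p = 0.546 in limma). It was -0.18 without replicate 1 and -2.55 without replicate 2 of 24 h, and passed in neither case (adjusted p = 0.977 and 0.133).

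The intergenic H3K27ac region downstream of Car2 (chr3:14915398-14916431) lay 28970 bp from the Car2 start site. It covered 1021 and 850 bp at 0 h, 0 and 914 bp after 2 h, 0 bp in both lists after 6 h, 635 and 828 bp after 12 h, and 0 bp in both lists at 24 h. The region was thus present at 0 h and absent at 24 h, and absent and present again in between. It was the only region of the cluster that counted as lost, meaning a peak in both lists at 0 h and in neither at 24 h, a state found in 4.18% of all H3K27ac regions. No cluster region was gained for H3K27ac (3.43% of all regions), and none was gained (0.456%) or lost (3.88%) for H3K4me3. Its difference was -2.50 ± 0.75 (SE) with an adjusted p of 0.116 in limma. It passed with the 4 lists at 0 h and 24 h alone (adjusted p = 0.00867) and when 1 of the 2 h lists was dropped (0.00692 and 0.00708), within a range of 0.00692 to 0.302 over all alternatives. Its scores ranked above 4.41% to 18.1% of the peaks of their list, so that it lay near the caller's limit wherever it was found.

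**Figure D4:**
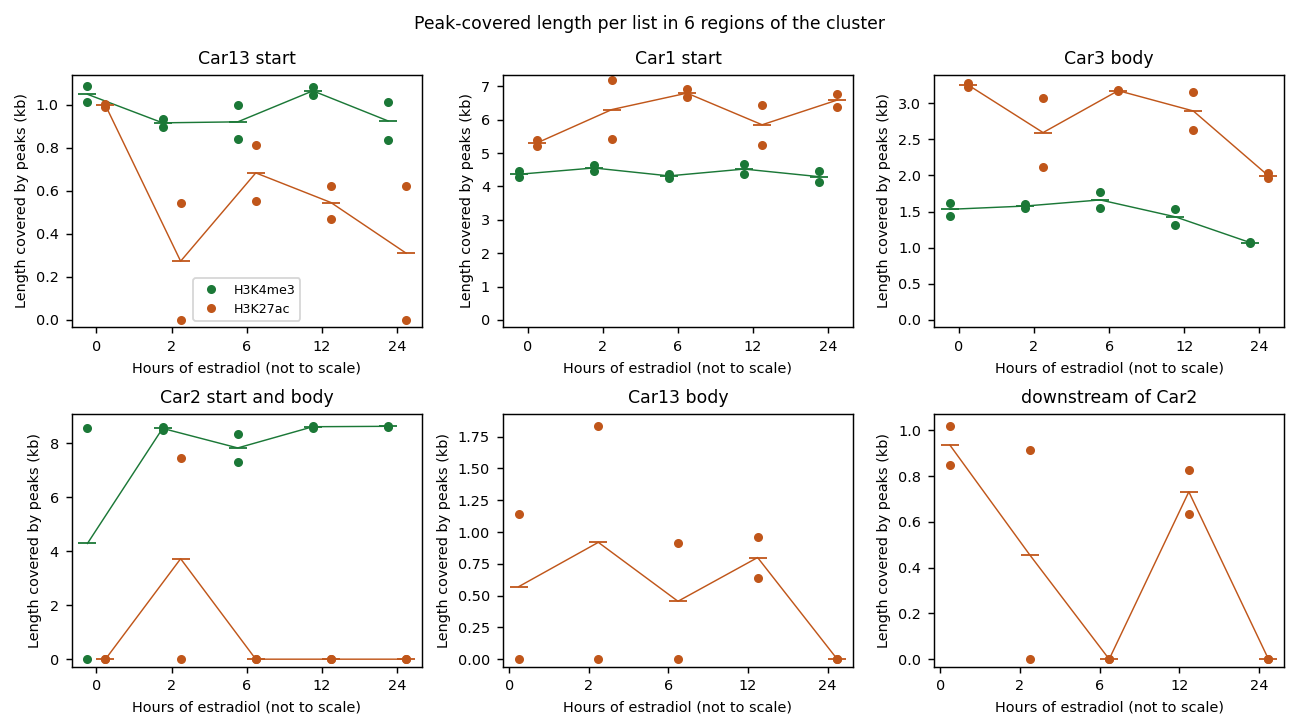
Length covered by peaks (kb, vertical axis from 0) in each list against hours of estradiol (categories, not to scale) for 6 regions, with 1 point per list and lines through the mean of 2 lists. In the Car3 body both marks are lowest at 24 h (means of 1069 bp and 1994 bp), while the H3K4me3 lengths of 0 h and 24 h overlap at Car1 and Car13. At Car2, H3K4me3 is 0 only in replicate 2 at 0 h, and H3K27ac is above 0 only in replicate 1 at 2 h. Downstream of Car2, H3K27ac is present in both lists at 0 h and 12 h, in 1 list at 2 h, and in none at 6 h and 24 h.

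For the whole set, 0 of 6 H3K4me3 and 0 of 6 H3K27ac regions passed at an adjusted p under 0.05 (limma), against 1.58% and 6.32% of all regions. At an unadjusted p under 0.05 the counts were 1 and 2, against 1841 of 14862 and 4444 of 21011. Both 24 h lists were longer than both 0 h lists in 1 H3K4me3 region, that of Car2 (14.0% of all regions), and in 2 H3K27ac regions (25.5%). They were shorter in 2 H3K4me3 regions (27.3%) and in 3 H3K27ac regions (20.7%). The median difference of the cluster regions in log2(bp + 200) was -0.12 for H3K4me3 and -1.01 for H3K27ac, against -0.04 and 0.01 over all regions tested. The H3K27ac median lay between the values of the Car3 body and the Car13 body, and the latter had no peak in 5 lists. The exact permutation test of 2 lists against 2 could not give a p below 0.333.

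The total length covered in the 319 kb also did not follow hours beyond the threshold. H3K4me3 covered 16730 and 8479 bp at 0 h, the second of these in the list without a Car2 peak, and 15047 and 16374 bp at 24 h. Spearman's rho with hours was -0.17 over 10 lists (two-sided permutation test, p = 0.650, adjusted p = 0.860) and Pearson's r was 0.22 (p = 0.547). H3K27ac covered 11766 and 10764 bp at 0 h, had 9854 and 8731 bp at 24 h, and reached at most 15590 bp in replicate 1 at 2 h, which held the Car2 peak. Its rho was -0.59 (p = 0.0818, adjusted p = 0.164) and its r -0.67 (p = 0.0299, adjusted p = 0.0598). When the 24 h pair was dropped, the H3K27ac r was -0.31 (exact permutation test, p = 0.526) and the H3K4me3 r was 0.28 (p = 0.565). That leaves fewer lists and a shorter range of hours, so it cannot tell whether the H3K27ac relation rested on the 24 h lists. Per Mb covered by the whole list, H3K27ac gave rho = -0.71 (p = 0.0270, adjusted p = 0.108 over the 4 trends) and H3K4me3 rho = -0.07 (adjusted p = 0.860).

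In windows of 2 kb either side of the start sites, no member passed for either mark (0 of 3 tested for H3K4me3, where 0.279% of all windows passed, and 0 of 2 for H3K27ac, where 1.60% passed), and none had an unadjusted p under 0.05. Car3 had no peak in its window, and Car2 had too few H3K27ac peaks to be tested. Among the 12 carbonic anhydrase genes elsewhere in the genome, 2 had H3K4me3 at their start in at least 1 list (46.3% of all start sites did), Car5a, a mitochondrial form, and Car14, a membrane form, named here after their values were seen. None of the 12 had H3K27ac, against peaks in at least 1 list at 45.2% of all start sites. Of 14 genes for transport of bicarbonate, carbon dioxide, protons, and water in red cells, 12 had H3K4me3 (against the same 46.3%) and 12 had H3K27ac (against 45.2%), and none passed the test. Of the 4 nearest coding neighbours, 1810022K09Rik and E2f5 on one side had both marks in all 10 lists, and Gm9733 and Sirpb1a on the other had neither. The pseudogenes Gm38151 and Gm5843 had no peak over them. Gm16399 lay beside the H3K27ac region of Car1, outside it.

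The neighbour 1810022K09Rik shared the left edge of the stretch. Its H3K4me3 region (chr3:14609563-14612145) was longer at 0 h, 2430 and 2504 bp, than at 24 h, 2270 and 2326 bp. Its H3K27ac region (chr3:14610038-14612145) was shorter at 0 h, 1292 and 1491 bp, than at 24 h, 1980 and 1806 bp. Neither passed (adjusted p = 0.734 and 0.251 in limma). Its H3K27ac peaks ranked above 79.4% to 92.4% of their lists, and apart from the regions of this gene no histone region of the stretch ranked above 46.1%.

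Genes whose start-site windows varied most like those of Car13 and Car1 were sought among 9389 genes, over the 20 histone lists after scaling within each mark. For Car13 they were Itprip (r = 0.73), Tnip2 (r = 0.71), and Entpd7 (r = 0.71), and for Car1 Tpx2 (r = 0.77), Fkbp2 (r = 0.73), and Bahd1 (r = 0.72). The lists are shared by all genes and so is any difference between libraries, and these values describe likeness only. Car2 and Car3 had too few peaks to be compared.

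CTCF was found at 9 places in the stretch at 0 h and at 8 of the same 9 at 24 h. All 8 peaks at 24 h overlapped a 0 h peak, as did 73.3% of all peaks at 24 h, and 8 of 9 peaks at 0 h overlapped one at 24 h, as did 92.1% of all peaks at 0 h. With 1 list per time there was no replicate check of CTCF. Peaks lay at the start sites of Car13 (chr3:14641203-14642210) and Car2 (chr3:14885590-14887816) and over the start of 1810022K09Rik. None lay within 2 kb of the Car1 start or the main Car3 start. A pair of peaks lay in the stretch between Car13 and Car1 (chr3:14666892-14668033 and chr3:14678877-14679927), away from any histone region of the cluster.

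The remaining CTCF peaks lay around Car3 and Car2. The peak in the Car3 body (chr3:14869409-14870589) overlapped the H3K4me3 and H3K27ac regions there. The peak found at 0 h alone (chr3:14871064-14871897) lay in the part of Car3 that the H3K27ac peaks of both 0 h lists covered and those of both 24 h lists did not. Its score of 51.2 was among the lowest of its list, above 1.60% of the peaks, and the lowest score in that list was 50.0. Other peaks lay between Car3 and Car2 (chr3:14873463-14875049) and in a Car2 intron (chr3:14892101-14892908).

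Of the 9 CTCF regions, 5 overlapped an H3K4me3 region and 6 an H3K27ac region, and for the pair at Car2 the H3K27ac region is the one found in 1 list. Over all CTCF peaks at 0 h, each of the 9 regions holding such a peak, 14.6% overlapped an H3K4me3 region and 19.7% an H3K27ac region. Of the 8 regions with peaks at both times, 7 ranked higher within their list at 24 h, as did 67.5% of all shared 0 h peaks. The 24 h list held more peaks (41473 against 33193), which by itself shifts ranks, so the ranks below describe each list and not a change in binding. The rank at Car13 was 51.4% at 0 h and 64.5% at 24 h, and at the Car2 start 74.9% and 76.7%. For the pair between Car13 and Car1 the ranks were 53.3% and 62.4% at 0 h and 81.4% and 80.8% at 24 h, and for the peak between Car3 and Car2 9.04% at 0 h and 43.6% at 24 h.

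**Figure D5:**
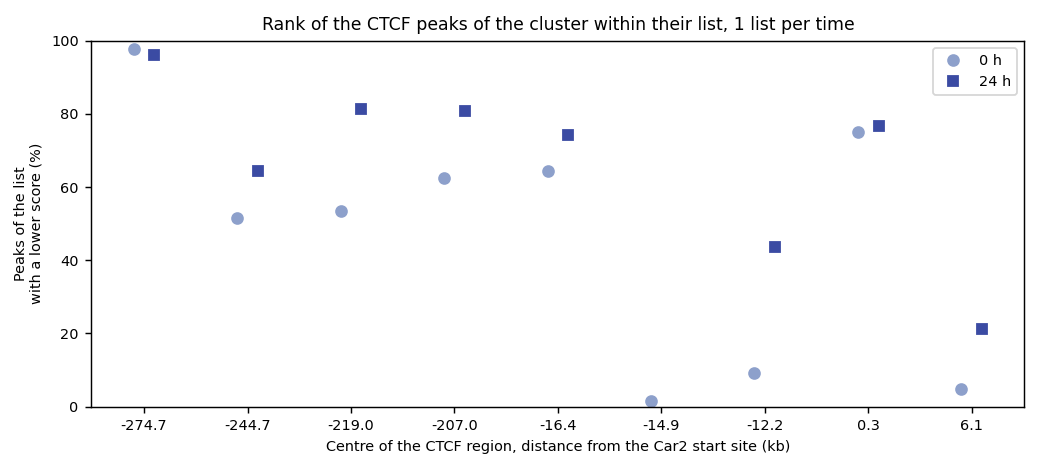
Rank of each CTCF peak of the cluster, as the percent of peaks of its own list with a lower score, at 0 h (circles) and 24 h (squares), for the 9 regions in genomic order, labelled by the distance of their centre from the Car2 start site in kb. The rank is higher at 24 h in 7 of 8 regions and falls slightly at the left edge (97.6% and 96.2%), and 1 region has no peak at 24 h.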

How the data were processed

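Peak lists of 20 histone ChIP-seq and 2 CTCF ChIP-seq libraries were used as deposited. Histone reads were aligned by the authors with Bowtie2 to mm10, uniquely mapped reads were kept, and they called peaks per library with MACS without its model step. The MACS version, control, and threshold are not given in the sources used here, and the methods do not name CTCF, so whether these steps also hold for it is unsure. The labels also name a human build, but positions fell on mouse start sites. The H3K4me3 antibody number differs between labels and methods. The deposited score is the authors' value and was taken as 10 times the −log10 of the p-value, from its minimum near 50. Start and end positions are deposited values too. The lists hold no reads, so depth is unknown.

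Peaks of the 10 lists of a mark were merged where they overlapped or adjoined without a gap. Covered length was tested with limma 3.58.1 (lmFit and eBayes, trend on) after log2(bp + 200), with a mean for each of 5 time points, over all regions or windows with a peak in at least 2 lists, adjusted by Benjamini-Hochberg. A peak that is present or absent departs from the normal noise limma assumes. In a test on simulated data with normal noise, 200 regions were shifted by 1 on the log2 scale. The simulated shares may therefore not hold where a peak is present in some lists only. Of the shifted regions, 61.0% (H3K4me3, 14862 regions) and 33.5% (H3K27ac, 21011 regions) were recovered, and 3.94% and 8.22% of the calls were false. For promoter windows 94.5% (10049) and 75.0% (9644) were recovered, with 3.08% and 3.23% false. Trends used permutation tests of 100000 resamples, or exact tests for fewer than 10 lists. Genes came from GENCODE M21, with 1 start site per gene. Scores were used only as ranks within a list or as a filter. Alternatives covered the score filter, merging distance, pseudocount, window, flank, samples fitted, replicate block, and lists left out.

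The labels do not say whether same-numbered lists were paired. The deviations of same-numbered lists correlated between -0.08 and 0.03 for H3K4me3 and between -0.03 and 0.02 for H3K27ac. No shared replicate effect on peak length was seen, which cannot show that the samples were unpaired.

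Named were the 4 members, other annotated genes in the stretch, listed genes past the threshold, and the 3 genes most like each member with peaks of both marks in at least 2 lists. Members and gene lists were chosen with earlier results of these data known. Promoter sequences of the members were not used here.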

Additional observations from a re-analysis of the deposited data

How the results depend on the processing

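Depth limits what these lists can show, since an absent peak may be a peak under the caller's threshold. The alternatives left most counts at 0 of the cluster's regions and windows. With only the 4 lists at 0 h and 24 h, 2 H3K27ac regions passed, those in the Car3 body and downstream of Car2. Leaving out 1 list gave 0 to 2 passing H3K27ac regions (2 without either list at 2 h), 0 to 1 H3K4me3 region, and 0 to 1 H3K4me3 window. The last 2 came from Car2 without replicate 1 of 0 h, which leaves at 0 h only the list without a Car2 peak (difference 5.46, adjusted p = 5.0e-07 for the region). Promoter windows were 0 of 4 for H3K27ac throughout. Regions gained or lost ranged from 0 to 1 for H3K4me3 and from 1 to 2 for H3K27ac without 1 list, the latter without replicate 2 of 0 h or replicate 1 of 24 h. With only peaks that reached the median score of all lists of the antibody, the H3K27ac count was 0, and the shared CTCF peaks at 24 h were 4 instead of 8. That score filter left no region or window of the 4 genes to test for either mark.

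For the length against hours, H3K4me3 turned from rho = -0.17 to a Pearson's r of 0.22, and ranged from -0.55 to 0.034 with 1 list left out, the latter without replicate 1 of 0 h. H3K27ac turned from rho = -0.59 to 0.58 under that same score filter, which leaves in the stretch only the edge peaks of the neighbour 1810022K09Rik, since no other H3K27ac peak there reached the filter's 241.9 (the highest had 211.5). That value describes the neighbour and not the 4 genes. The H3K27ac rho was -0.47 with no flank and -0.25 with a flank of 100 kb (adjusted p = 0.366 and 0.918). The rho ranged from -0.86 to -0.44 with 1 list left out, and passed without replicate 2 of 0 h (rho = -0.86, adjusted p = 0.00829). The cause of the changes with lists left out was not tested. The replicate block, whose numbers may not mark pairs, gave rho = -0.18 for H3K4me3 and -0.59 for H3K27ac and changed no call. No listed rule singled out a result for a closer look, since no group held 4 samples.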
